A study of Sus scrofa with 15 samples.

Results

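Testis RNA of male piglets was examined for 10 genes of bone morphogenetic protein (BMP) signalling: the ligand gene BMP4, the receptor genes BMPR2 and ACVRL1, the signal transducer SMAD9, the inhibitors SMAD6, SMAD7 and SMURF1, and the target genes ID1, ID2 and ID3. The genes were chosen by name, and all 10 were found among the 30476 genes of the count table. The choice rested in part on these same data. SMAD6 was picked for its difference from the Sow group, in which SMAD7, SMURF1 and ACVRL1 had also been listed, so differences of the 10 genes from Sow are given as a description: single p-values are left out, and calls and intervals relative to Sow are not read as tests. All 10 passed the filter on low counts, which kept 15634 genes.

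Piglets of Dutch Landrace Duroc sows suckled until postnatal day (PND) 2 and then received 1 of 5 diets until PND 21, when testes were frozen. The Sow group drank sow milk, the Milk group a cow's milk formula and the Soy group a soy formula. The M + E2 group drank the cow's milk formula with added 17β-estradiol, dosed for a serum level of 15 to 30 pmol/L, and the M + G group drank it with added genistein, an isoflavone of soy, at 84 mg/L. The labels give this as a serum concentration and the methods as a concentration in the diet, which was not settled here. The estradiol level is the one aimed at. Serum estradiol measured in M + E2 by the paper was far above it, and above that of all other groups. The 4 groups other than Sow are called formula groups here, and they differ from Sow in the whole composition of the diet. Each group has 3 libraries. One Sow and one Soy library carry no number in the count table, and they are called unnumbered. RNA came from frozen testis tissue and not from sorted cells, so that fewer cells of a type and less RNA per cell cannot be told apart. Which part of a testis was taken is not given in the sources used here.

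BMP ligands bind a complex of type I and type II receptors, which phosphorylates the receptor SMADs (SMAD1, SMAD5 and SMAD9). These join SMAD4, enter the nucleus and switch on target genes such as the ID genes, whose products hold back basic helix-loop-helix transcription factors and thereby differentiation. SMAD6 and SMAD7 are inhibitory SMADs. Their genes are themselves induced by the pathway, and with ubiquitin ligases such as SMURF1 they shut it off, which makes a negative feedback loop. BMP4 and related ligands act on germ cells and Sertoli cells of the young testis, and ACVRL1 with BMPR2 is best known from the endothelium of blood vessels.

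The libraries held between 6097552 and 9488579 reads on genes (median 8198038). Levels are given as CPM, the reads of a gene relative to all reads on genes of that library after TMM scaling over the 15 libraries. They are not divided by gene length, so they are compared between libraries and not between genes. Sow 2 stood apart from the other libraries, with a TMM factor of 0.739 and a lowest correlation of 0.871 with another library, and the study's methods leave it out of comparisons. It is shown among the levels and left out of the fitted fold changes, unless stated otherwise. Summed ribosomal protein mRNA (51 genes) ranged from 60393 to 114883 CPM in Sow and from 24250 to 60907 CPM in the formula groups, and its part in the results was not tested. Testis markers were present in every library: 6 Sertoli cell genes summed to between 3042 and 7591 CPM, 4 Leydig cell genes to between 10269 and 24768 CPM, and 3 germ cell genes to between 88.2 and 245 CPM. The Sertoli sum was lowest in Milk 2 (3042 CPM), M + G 2 (3603 CPM) and Soy 3 (3688 CPM). Milk 2 also had the lowest Leydig sum, followed by the M + E2 libraries, at 12315 to 12980 CPM.

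The inhibitor genes SMAD6, SMAD7 and SMURF1, together with the receptor gene ACVRL1, were higher in every one of the 12 formula libraries than in any of the 3 Sow libraries. That is 4 of 10 genes, where 5.35% of all genes tested showed the same order. None of the 10 was lower in every formula library than in every Sow library, an order that 8.73% of all genes showed. The remaining 6 genes (BMP4, BMPR2, SMAD9, ID1, ID2 and ID3) overlapped between Sow and the pooled formula groups. Nothing is read from the count of 4, since the genes were partly picked for this difference.

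**Figure D1:**
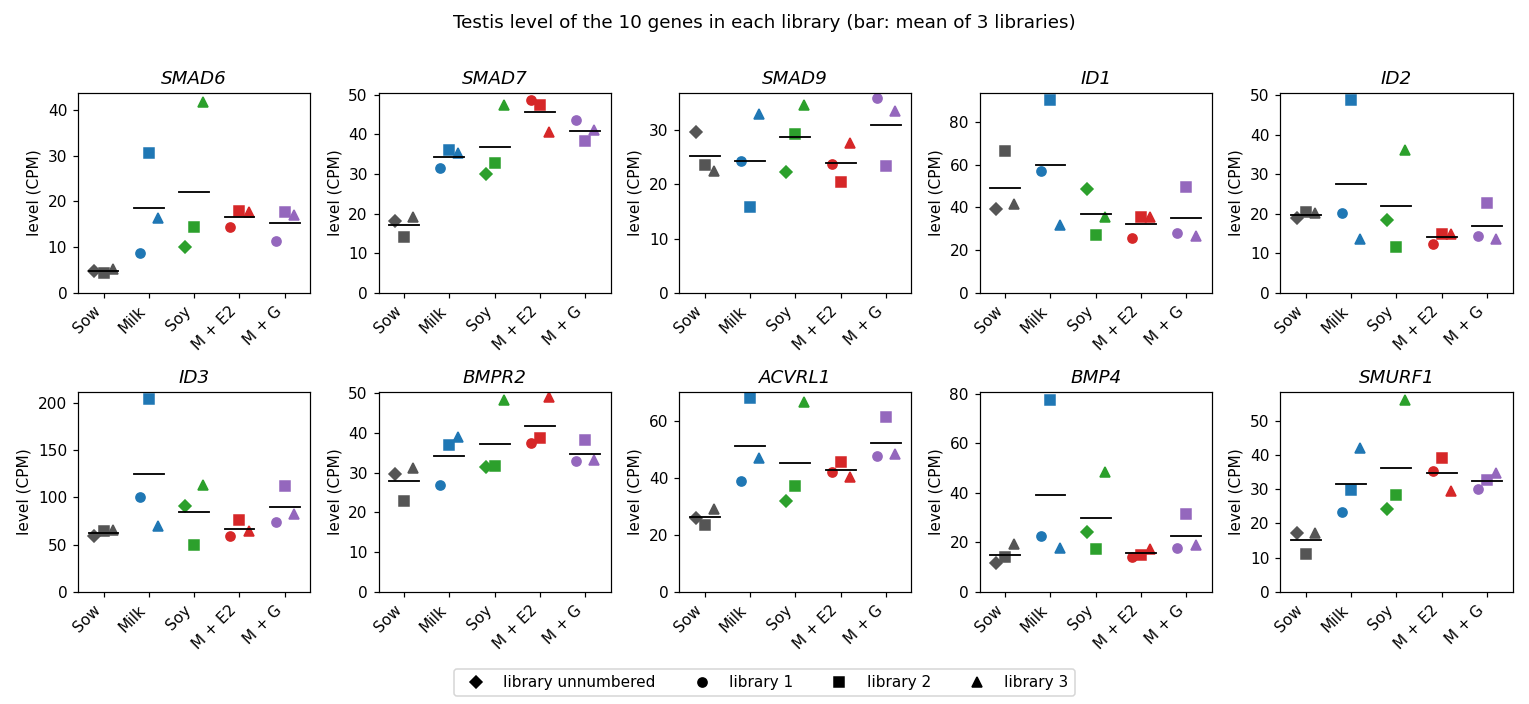
Level of each of the 10 genes in every library (vertical axis, CPM, starting at 0) by diet group (horizontal axis). Symbols give the library number and the black bar is the mean of 3 libraries. The 12 formula libraries lie above all 3 Sow libraries for SMAD6, SMAD7, SMURF1 and ACVRL1, and Milk 2 is the highest library for BMP4, ID1, ID2 and ID3.

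BMP4 (ENSSSCG00000005045, chromosome 1, 183415989 to 183422888 of Sscrofa11.1) encodes the ligand. Its level was 11.8, 14.0 and 19.3 CPM in the Sow libraries (unnumbered, 2 and 3). In Milk it was 22.4, 77.4 and 17.9 CPM, and in Soy (unnumbered, 2 and 3) it was 24.0, 17.3 and 48.3 CPM. In M + E2 it was 14.2, 15.0 and 17.3 CPM, and in M + G it was 17.5, 31.5 and 19.0 CPM. The M + E2 libraries were thus as low as those of Sow, while Milk and Soy each had 1 library far above its companions. Without Milk 2 the Milk mean was 20.1 ± 3.19 CPM (SD, n = 2) in place of 39.2 ± 33.1 (SD, n = 3), and without Soy 3 the Soy mean was 20.6 ± 4.74 CPM (SD, n = 2) in place of 29.8 ± 16.4 (SD, n = 3).

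BMPR2 (ENSSSCG00000016113, chromosome 15, 105971577 to 106132496), the type II receptor, was on average highest in M + E2 and lowest in Sow. Its level averaged 41.8 ± 6.31 CPM in M + E2, 37.1 ± 9.60 in Soy, 34.8 ± 3.00 in M + G, 34.3 ± 6.44 in Milk and 27.9 ± 4.46 in Sow (SD, n = 3 each). Of the 12 formula libraries, 11 were above every Sow library, and the exception was Milk 1 at 26.9 CPM. Neighbouring groups in this order of means differed by less than the larger of their SDs. All M + E2 libraries were above all Sow libraries, an order found in 26.7% of all genes.

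ACVRL1 (ENSSSCG00000000232, chromosome 5, 17267483 to 17284155), the type I receptor also called ALK1, had 25.8, 23.6 and 29.1 CPM in Sow. In Milk it had 38.9, 68.1 and 47.1 CPM and in Soy 32.0, 37.3 and 67.0 CPM. In M + E2 it had 42.3, 45.7 and 40.4 CPM and in M + G 47.9, 61.4 and 48.4 CPM. All formula libraries were above all Sow libraries, but the gap between the highest Sow and the lowest formula library, the unnumbered one of Soy, was small. Its fitted log2 fold change relative to Sow was 0.94 ± 0.296 (SE) in M + G, 0.91 ± 0.296 in Milk, 0.72 ± 0.295 in Soy and 0.68 ± 0.294 in M + E2. In Soy it depended on Soy 3, without which it was 0.33.

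SMAD9 (ENSSSCG00000009357, chromosome 11, 12705652 to 12727981), also called SMAD8, is the receptor SMAD among the 10 genes. It averaged 30.9 ± 6.63 CPM in M + G, 28.8 ± 6.20 in Soy, 25.2 ± 3.81 in Sow, 24.4 ± 8.51 in Milk and 24.0 ± 3.52 in M + E2 (SD, n = 3 each). All 5 groups overlapped. Its lowest library was Milk 2 at 15.9 CPM, the library in which BMP4 and the ID genes were highest.

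SMAD6 (ENSSSCG00000004948, chromosome 1, 164652602 to 164735084) inhibits the receptor SMADs. Its level was 4.77, 4.21 and 5.21 CPM in Sow, from 34, 28 and 43 reads. It was 8.77, 30.7 and 16.4 CPM in Milk, from 60, 249 and 134 reads, and 10.1, 14.4 and 41.9 CPM in Soy, from 74, 130 and 356 reads. It was 14.4, 17.9 and 17.6 CPM in M + E2, from 106, 146 and 173 reads, and 11.2, 17.7 and 17.0 CPM in M + G, from 88, 168 and 154 reads. The Sow libraries lay close together at the bottom, M + E2 and M + G in the middle, and Milk and Soy spread across the whole range, with Soy 3 and Milk 2 at the top. The median of the formula libraries was 3.50 times that of Sow.

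By group means the order of SMAD6 was Soy (22.1 ± 17.2 CPM), Milk (18.6 ± 11.1), M + E2 (16.6 ± 1.93), M + G (15.3 ± 3.54) and Sow (4.73 ± 0.503; SD, n = 3 each). The first 4 differed by less than the spread of Soy or of Milk, so no order among the formulas can be read from them. Without Soy 3 the Soy mean was 12.2 ± 3.05 CPM and without Milk 2 the Milk mean was 12.6 ± 5.39 CPM (SD, n = 2 each), which put both below M + E2 and M + G. Relative to Sow, the fitted log2 fold change was 2.14 ± 0.595 (SE) in Soy and 1.90 ± 0.593 in Milk, and the groups with additions had 1.77 ± 0.591 (M + E2) and 1.62 ± 0.589 (M + G). Without Soy 3 it was 1.29 in Soy, and without Milk 2 it was 1.36 in Milk. These 4 values share the same Sow libraries and are not independent of each other.

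SMAD7 (ENSSSCG00000004507, chromosome 1, 98512800 to 98543924) encodes the inhibitor of both BMP and TGF-β receptors, and was steadier than SMAD6. It had 18.1, 14.0 and 19.0 CPM in Sow, 31.6, 36.1 and 35.4 CPM in Milk and 29.9, 32.7 and 47.5 CPM in Soy. In M + E2 it had 48.7, 47.5 and 40.7 CPM and in M + G 43.5, 38.3 and 41.0 CPM. Libraries of M + E2 and M + G were all above those of Milk, as in 7.83% (M + E2) and 2.99% (M + G) of all genes. In Soy again the third library was the highest. The fitted log2 fold change relative to Sow was 1.34 ± 0.202 (SE) in M + E2, 1.15 ± 0.200 in M + G, 0.98 ± 0.200 in Soy and 0.90 ± 0.200 in Milk.

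SMURF1 (ENSSSCG00000030153, chromosome 3, 6037732 to 6142569), a ubiquitin ligase that marks receptors and receptor SMADs for breakdown, had 17.1, 11.1 and 17.3 CPM in Sow. In Milk it had 23.3, 29.7 and 42.1 CPM and in Soy 24.4, 28.3 and 56.2 CPM. In M + E2 it had 35.3, 39.1 and 29.6 CPM and in M + G 30.0, 32.8 and 34.8 CPM. Milk 3 and Soy 3 were the highest libraries of their groups, so that SMURF1 did not share the peak of SMAD6 in Milk 2. Its fitted log2 fold change relative to Sow lay between 0.89 ± 0.328 (SE, Milk) and 1.07 ± 0.329 (Soy). It was 0.61 in Soy without Soy 3 and 0.63 in Milk without Milk 3.

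The target genes differed among themselves. ID1 (ENSSSCG00000037016, chromosome 17, 35316518 to 35317742) had 39.3, 66.6 and 41.6 CPM in Sow, 56.9, 90.4 and 31.9 CPM in Milk and 48.6, 26.9 and 35.5 CPM in Soy. In M + E2 it had 25.6, 35.5 and 35.7 CPM and in M + G 28.0, 49.6 and 26.8 CPM. Every M + E2 library was below every Sow library, an order found in 31.9% of all genes, and the other formula groups overlapped Sow. Only Milk 2 exceeded all Sow libraries.

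ID2 (ENSSSCG00000008645, chromosome 3, 127500759 to 127503207) was nearly the same in the Sow libraries, at 18.8, 20.3 and 20.1 CPM. It had 20.2, 48.7 and 13.6 CPM in Milk and 18.4, 11.6 and 36.0 CPM in Soy. The M + E2 libraries had 12.4, 14.9 and 14.8 CPM, and those of M + G had 14.4, 22.7 and 13.5 CPM. Formula libraries lay on both sides of Sow, with Milk 2, Soy 3 and M + G 2 above. All M + E2 libraries were below Sow, as in 31.9% of all genes. The median of the formula libraries was 0.738 times that of Sow, whereas the means of Milk and Soy were above it.

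ID3 (ENSSSCG00000039514, chromosome 6, 81422541 to 81424169) had 58.9, 64.0 and 65.0 CPM in Sow, 99.9, 204 and 70.0 CPM in Milk and 90.5, 50.0 and 113 CPM in Soy. In M + E2 it had 59.1, 76.2 and 63.9 CPM and in M + G 74.3, 112 and 82.5 CPM. All Milk libraries were above Sow, as in 11.4% of all genes, and so were all M + G libraries, as in 23.5% of all genes, whereas M + E2 and Soy overlapped it. The Milk mean was 125 ± 70.3 CPM (SD, n = 3) and 84.9 ± 21.1 CPM (SD, n = 2) without Milk 2.

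**Figure D2:**
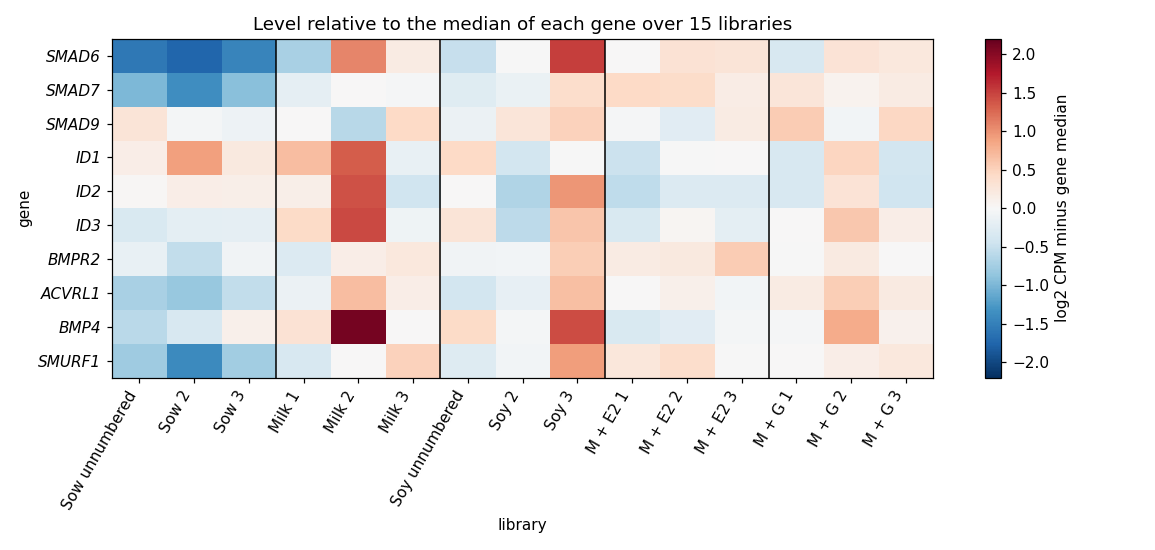
Level of each gene (rows) in each of 15 libraries (columns, groups divided by lines) as log2 CPM minus the median of that gene; red is above and blue below the median. SMAD6, SMAD7, ACVRL1 and SMURF1 are blue in all 3 Sow libraries, and Milk 2 and Soy 3 are the reddest columns, with ID2, ID3, ACVRL1, BMP4 and SMAD6 highest there.

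Differences between diets were fitted with edgeR's quasi-likelihood F test, with p-values adjusted by the Benjamini-Hochberg method over all genes tested. Genes were called where the adjusted p was 0.05 or less and the change reached 2-fold. Relative to Sow, 1 of 10 genes was called in M + E2, SMAD7, which was higher. Of all genes tested, 5% were called there, 1.44% as higher. None of the 10 was called in M + G (0.0576% of all genes), in Soy (0.0128%) or in Milk (0.0192%). At an unadjusted p under 0.05 the counts for M + E2, M + G, Soy and Milk were 5, 4, 4 and 6, beside 33.8%, 23.6%, 15% and 12.1% of all genes. Among them were SMAD6, SMAD7, SMURF1 and ACVRL1 in each comparison, BMPR2 in M + E2, and BMP4 and ID3 in Milk. edgeR's exact test called 3, 2, 0 and 0 of the 10 genes in the same order, beside 12.6%, 6.48%, 0.367% and 0.124% of all genes. DESeq2's Wald test called 3, 1, 1 and 0, beside 8.5%, 2.11%, 0.211% and 0.205%. These counts are a description, because the comparisons with Sow took part in the choice of the genes. The paper, also using edgeR's exact test, names SMAD6 as its most raised gene in Soy relative to Sow. Why that test did not call SMAD6 here was not settled. The call of SMAD7 was lost without any single M + E2 library, while its log2 fold change stayed between 1.26 and 1.41 and the calls over all genes went from 781 to 6. It was also lost with the replicate number as a block on the numbered libraries alone, where the log2 fold change was 1.33 and 11 genes were called in all.

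The number called depended on Sow 2. With all 3 Sow libraries, SMAD6, SMAD7 and SMURF1 were called in M + E2, and ACVRL1, SMAD6, SMAD7 and SMURF1 in M + G, beside 18.1% and 10.3% of all genes, so that calls rose over the whole table. In Soy (0.0261% of all genes) and in Milk (0.0587%) still 0 of the 10 were called. The median log2 fold change of the 10 genes relative to Sow was 0.90 in Milk, 0.58 in Soy, 0.54 in M + G and 0.32 in M + E2. The median of all genes tested was 0.00, 0.02, 0.02 and 0.01 in the same order. Nothing is read from the distance between the 2 medians, since the genes were partly picked for being higher than Sow. The value in Milk includes Milk 2, the highest library for BMP4, ID1, ID2 and ID3.

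**Figure D3:**
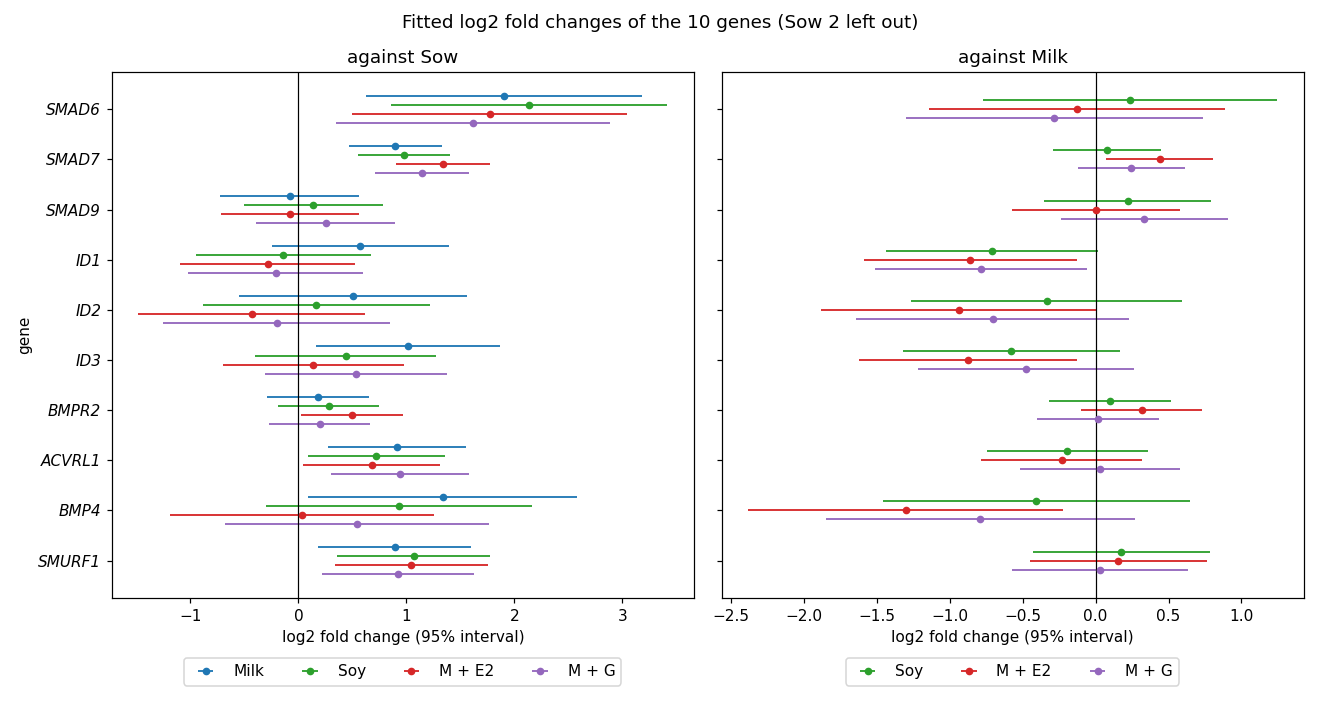
Fitted log2 fold changes of the 10 genes with their 95% intervals (horizontal axis, log2 scale), relative to Sow on the left and relative to Milk on the right; colours give the diet and Sow 2 is left out. The values of SMAD6, SMAD7, ACVRL1 and SMURF1 are positive for all 4 formulas relative to Sow, by which they were partly chosen, and the intervals of SMAD6 span 0 for all 3 diets relative to Milk.

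The 6 comparisons without Sow asked whether soy formula, estradiol or genistein changed these genes among formula-fed piglets. In none of them was any of the 10 genes called by the quasi-likelihood test, by edgeR's exact test or by DESeq2's Wald test, and over all genes the latter 2 tests called between 2 and 203 in a comparison. Of all genes tested, 0.147% (23 genes) were called in Soy versus M + E2, and 0% in the other 5 comparisons. At an unadjusted p under 0.05 there were 4 of the 10 genes in M + E2 versus Milk (17.7% of all genes), 1 in M + G versus Milk (2.6%), and 0 in Soy versus Milk (2.44%), Soy versus M + E2 (13%), M + E2 versus M + G (7.01%) and Soy versus M + G (3.65%).

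Adding estradiol to the cow's milk formula left SMAD6 without a detectable difference. Its log2 fold change relative to Milk was −0.13, with a 95% interval from −1.15 to 0.89, which includes a level 2-fold lower with estradiol and stops just short of one 2-fold higher. The 4 genes at an unadjusted p under 0.05 were SMAD7, with a log2 fold change of 0.44 ± 0.171 (SE, adjusted p = 0.240), ID1, with −0.86 ± 0.338 (adjusted p = 0.241), ID3, with −0.88 ± 0.346 (adjusted p = 0.242), and BMP4, with −1.30 ± 0.502 (adjusted p = 0.240). None passed the correction. The inhibitor had the positive value, and the ligand and both ID genes had negative ones.

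Library by library, all 3 M + E2 libraries were above all 3 Milk libraries in SMAD7, an order found in 7.83% of all genes. For BMP4 all 3 were below, an order found in 10.1% of all genes. ID1, ID2 and ID3 overlapped. The lower values of ID1, ID3 and BMP4 rested in large part on Milk 2. Without it the log2 fold change was −0.45 for ID1, −0.34 for ID3 and −0.36 for BMP4 (adjusted p from 0.655 to 0.770), and without Milk 3 it was −1.16, −1.16 and −1.65, and all 3 genes were called (adjusted p = 0.0251, 0.0308 and 0.0359, edgeR). In that fit 1256 genes were called in all. SMAD7 moved little, between 0.37 and 0.51, over all alternatives.

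Genistein in the same formula gave 1 gene at an unadjusted p under 0.05, ID1, with a log2 fold change of −0.78 ± 0.337 (SE) and an adjusted p of 0.940 by edgeR. Its level was lower in M + G than in the Milk library of the same number for each of the 3 numbers. No label states that these libraries are pairs. With the replicate number as a block its log2 fold change was −0.77 (adjusted p = 0.944, edgeR). Without Milk 2 it was −0.37. SMAD7 was higher in all 3 M + G than in all 3 Milk libraries, as were 2.99% of all genes, and its log2 fold change of 0.25 had a 95% interval from −0.12 to 0.61. SMAD6 had −0.28, with an interval from −1.30 to 0.73.

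Soy formula and cow's milk formula did not differ detectably in any of the 10 genes, with adjusted p-values of 0.999 throughout (edgeR), and over all alternatives the smallest for SMAD6 was 0.652. For SMAD6 the log2 fold change was 0.23, with a 95% interval from −0.77 to 1.24. It was −0.61 without Soy 3 and 0.78 without Milk 2, so that its sign depended on which library was left out. The widest intervals belonged to BMP4 (−1.46 to 0.65) and SMAD6, and the narrowest to SMAD7 (−0.29 to 0.45).

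Soy was also compared with M + E2, the estrogenic control, and with M + G. SMAD6 had a log2 fold change of 0.36 (95% interval −0.65 to 1.37) relative to M + E2 and of 0.52 (−0.49 to 1.53) relative to M + G, and both turned negative without Soy 3, at −0.48 and −0.33. Between M + E2 and M + G it was 0.16 (−0.86 to 1.17). ACVRL1 and BMP4 were lower in every M + E2 than in every M + G library, an order found in 13% of all genes, with log2 fold changes of −0.26 (−0.81 to 0.29) and −0.51 (−1.59 to 0.57).

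The libraries within a diet differed in their blood vessel and muscle markers, and several of the 10 genes moved with them. Endothelial markers (14 of 15 listed genes, none at 0 in every library) summed to between 478 and 651 CPM in Sow and between 704 and 1687 CPM in the formula libraries. The highest were Soy 3, at 1687 CPM, and Milk 2, at 1572 CPM, which were also the highest 2 libraries for SMAD6. CDH5, KDR, TIE1, ROBO4 and SOX18, genes of endothelial junctions, receptors and transcription, were above all Sow libraries in 12 of 12 formula libraries, as were 5.35% of all genes. TEK and EMCN, also endothelial, were not: their formula medians were 0.877 and 0.843 times those of Sow, and 5 and 2 of the formula libraries were above all Sow libraries. That number was 11 for VWF and SOX17, 10 for FLT1 and ESAM, 9 for PECAM1, 6 for ERG and 5 for CLDN5. VWF and PECAM1 weighed heavily in the sum, with 527 and 306 CPM in Soy 3 and 437 and 312 CPM in Milk 2.

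**Figure D4:**
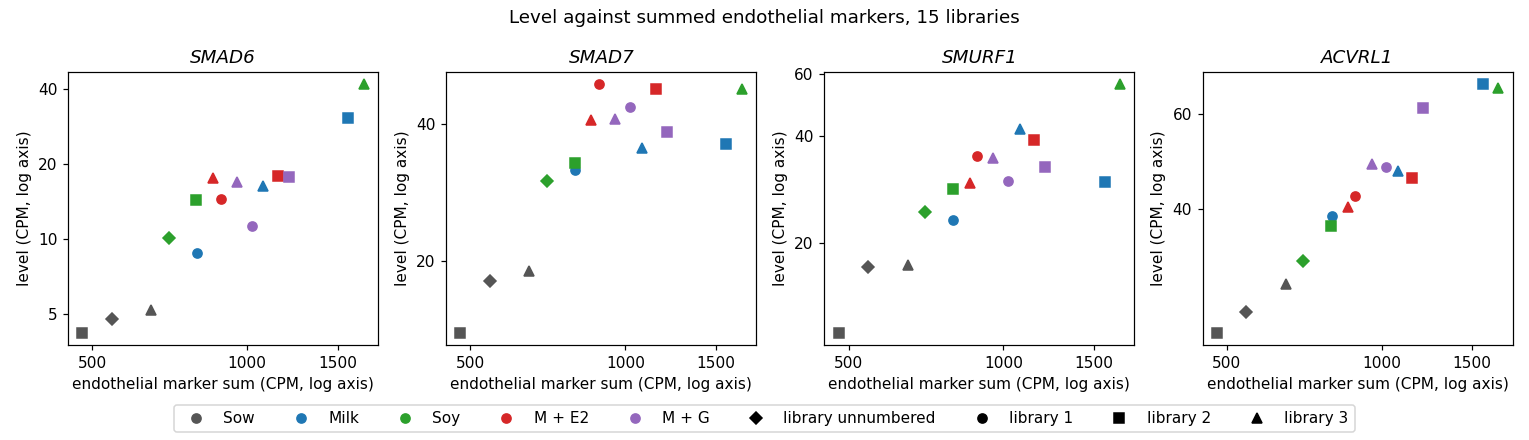
Level of SMAD6, SMAD7, SMURF1 and ACVRL1 (vertical axes, CPM, log scale) against the summed level of 14 endothelial markers (horizontal axes, CPM, log scale) in 15 libraries; colours give the diet and symbols the library number. The Sow libraries lie at the lower left in each panel, Soy 3 and Milk 2 at the right, and the ACVRL1 points lie close to a line.

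Set against the endothelial sum, ACVRL1 and SMAD6 behaved differently. This ratio was chosen after the levels were seen. ACVRL1 had between 4.47 and 4.93 CPM per 100 CPM of endothelial markers in Sow and between 3.97 and 5.11 in the formula libraries. Its highest ratio was 1.29 times its lowest, and 0.0064% of the genes tested, which is ACVRL1 alone, had a span this small. The limit for that share was the span of ACVRL1 itself, so nothing is read from it. SMAD6 had between 0.800 and 0.880 CPM per 100 in Sow and between 1.10 and 2.48 in the formula libraries. It was the only one of the 10 genes whose ratio was higher in every formula library than in every Sow library, an order found in 0.0704% of all genes (11 genes). Nothing is read from this share, since SMAD6 was picked for its difference from Sow. The ratios of SMAD7 (2.92 to 3.32 in Sow, 2.30 to 5.49 in formula) and SMURF1 (2.33 to 3.14 and 1.89 to 3.97) overlapped. The part of endothelial RNA in the levels was not tested beyond this ratio.

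Within the 12 formula libraries, SMAD6 was related to 9 other genes and to the endothelial sum, 10 relations in all. With the endothelial sum Pearson's r was 0.879 (permutation test, adjusted p = 0.0031) and Spearman's rho 0.832 (adjusted p = 0.0133), and r was 0.634 without Soy 3 and Milk 2. With ACVRL1 r was 0.811 (permutation test, adjusted p = 0.00635) and rho 0.741 (adjusted p = 0.0249), and r was 0.721 without the 2 libraries farthest in ACVRL1 and 0.569 without Soy 3 and Milk 2. With BMPR2 r was 0.736 (permutation test, adjusted p = 0.0177) and rho 0.755 (adjusted p = 0.0249), and r was 0.804 without the 2 farthest libraries and 0.779 without Soy 3 and Milk 2.

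With SMURF1 r was 0.735 (permutation test, adjusted p = 0.0177) and rho 0.622 (adjusted p = 0.0863). It was 0.299 without the 2 farthest libraries, Soy 3 and Milk 1, and 0.785 without Soy 3 and Milk 2, so it depended on which libraries were left out. With BMP4 and ID2 r was 0.658 and 0.640 (permutation test, adjusted p = 0.0436 each), and without Milk 2 and Soy 3 it was −0.212 and −0.308, so both relations rested on these libraries. SMAD7, ID3, ID1 and SMAD9 gave r of 0.464, 0.472, 0.175 and −0.05, with adjusted p of 0.166 or more by permutation test. Each diet has 3 libraries, too few for a relation within a diet, and all levels are shares of the same library totals.

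Smooth muscle markers (ACTA2, MYH11, TAGLN, DES and CNN1) marked the same libraries. Their sum was 4144 CPM in Soy 3, 3223 CPM in Milk 2 and 2400 CPM in M + G 2, and between 293 and 979 CPM in the other libraries. These 3 libraries were the highest 3 for ID2, ID3, ACVRL1 and BMP4, that is 4 of 10 genes, as for 5.51% of all genes. Soy 3 and Milk 2 were the highest 2 for SMAD6, ID2, ID3, ACVRL1 and BMP4, 5 of 10 genes, as for 5.26% of all genes. ID1 did not share this order, being high in Milk 2 and Sow 2 but not in Soy 3. Nothing is read from the counts of 4 and 5, since these libraries were singled out after the levels of the 10 genes were seen. Whether the amount of muscle or vessel tissue in a sample accounts for these levels was not tested.

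**Figure D5:**
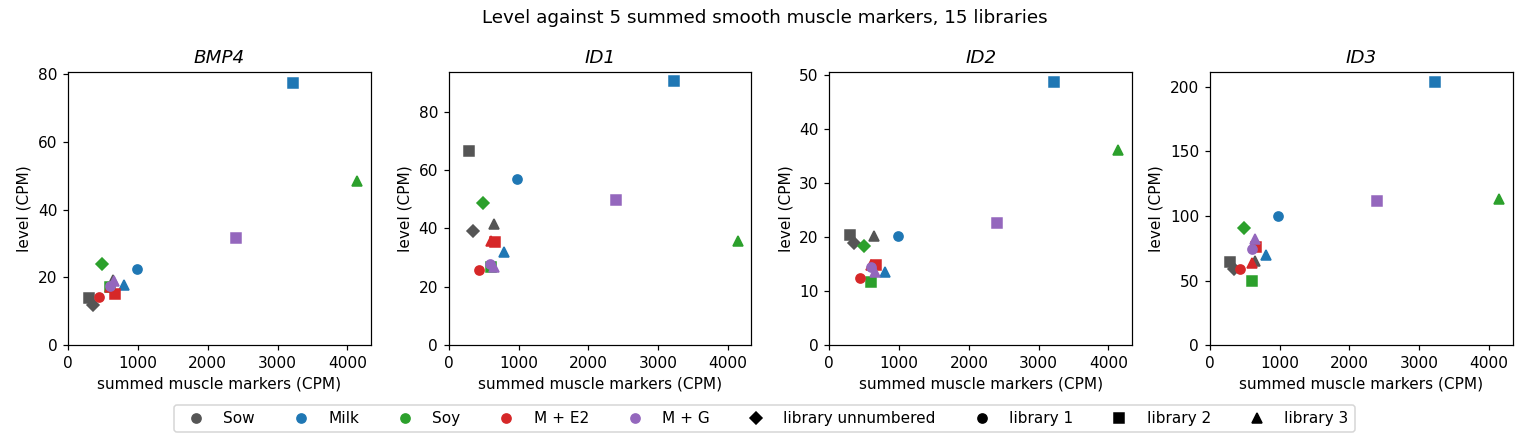
Level of BMP4, ID1, ID2 and ID3 (vertical axes, CPM, starting at 0) against the summed level of 5 smooth muscle markers (horizontal axes, CPM) in 15 libraries; colours give the diet and symbols the library number. Milk 2, Soy 3 and M + G 2 lie to the right of the other 12 libraries, and for BMP4, ID2 and ID3 they are also the highest 3.

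Of 53 other genes of the BMP pathway on a fixed list, 50 were found and 38 passed the filter on low counts. They comprise 6 of 14 ligands, 9 of 10 receptors and co-receptors, all 3 further transducers, 6 of 11 extracellular inhibitors, all 7 membrane and intracellular inhibitors and 7 of 8 targets. In M + E2 relative to Sow, 2 of 38 were called higher and 2 lower, beside 1.44% and 3.56% of all genes, and in the other 9 comparisons the quasi-likelihood test called 0 of 38. At an unadjusted p under 0.05 these 9 comparisons gave between 1 of the 38 genes (Soy versus Milk, 2.44% of all genes) and 10 (M + E2 versus Milk, 17.7%). In M + E2 versus Sow the exact test and the Wald test each called 5 of 38, beside 12.6% and 8.5% of all genes. The exact test called 4 in M + G versus Sow, beside 6.48% of all genes. In M + E2 versus Milk each called 1 of 38, beside 92 (exact) and 122 (Wald) of all genes, and neither called any in the remaining comparisons.

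The called pair of higher genes was SKI, an inhibitor that binds SMADs in the nucleus, with a log2 fold change of 1.42 ± 0.407 (SE), and HEY2, a transcriptional repressor, with 1.25 ± 0.228. The lower pair was TOB1, an antiproliferative protein that restrains SMAD signalling, with −1.36 ± 0.318, and TMEM100, a target of ACVRL1 signalling in endothelium, with −1.08 ± 0.266. HEY2 had 9.68, 6.16 and 6.42 CPM in Sow and 21.1, 15.7 and 18.9 CPM in M + E2. TMEM100 had 97.5, 129 and 73.2 CPM in Sow and 36.6, 42.3 and 38.7 CPM in M + E2. The libraries of SKI, HEY2, TOB1 and TMEM100 did not overlap between these groups, as in 26.7% (higher) and 31.9% (lower) of all genes.

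Over all diets, ENG, HEY2, MSX1 and SKI were above all Sow libraries in every formula library, and BMPR1A and SMAD4 were below them, which makes 4 and 2 of 38 genes, beside 5.35% and 8.73% of all genes. ENG, the endothelial co-receptor of ACVRL1, had between 66.3 and 103 CPM in Sow and between 117 and 338 CPM in the formula libraries. SMAD4, the partner of all receptor SMADs, had between 110 and 132 CPM in Sow and between 80.9 and 108 CPM in formula. BMPR1A, the main type I BMP receptor, had between 87.5 and 135 CPM in Sow and between 44.0 and 79.3 CPM in formula. For SKI the gap was narrow, with 35.6 CPM in Sow 3 and 35.8 CPM in the unnumbered Soy library. MSX1 rested on few reads, with at most 1.12 CPM in Sow (8 reads) and at least 1.22 CPM in formula (12 reads, M + E2 3).

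In Milk, Soy and M + G the genes of the list that lay furthest from Sow, among those not overlapping the Sow libraries other than Sow 2, were not called. ID4, the fourth ID gene, had log2 fold changes of 2.80 ± 1.03 (SE) in Milk, 2.07 ± 1.02 in Soy and 1.69 ± 1.01 in M + G, with 3.93, 3.61 and 6.30 CPM in Sow, 75.6 CPM in Milk 2 and 50.6 CPM in Soy 3. Without the highest library of the group (Milk 2, Soy 3 and M + G 2) they were 1.64, 0.51 and 0.74. The other such genes were CHRDL1, an extracellular BMP antagonist, at 1.68 in Milk, the ligand BMP6 at 1.51 in Soy, and ATOH8 at 1.17 in M + G. Without Milk 2, Soy 3 and M + G 2 these were 0.89, 0.72 and 0.77. On the lower side were BMPR1B at −0.84 and BMP5 at −0.71 in Milk, BMPR1A at −0.56 and BMP7 at −0.49 in Soy, and BMPR1B at −0.74 and HEY1 at −0.71 in M + G. With Sow 2 among the levels, BMPR1B, HEY1 and BMP7 overlapped Sow. BMP5 rested on few reads, with 5, 5 and 7 in Milk and 7, 8 and 12 in Sow. So did BMP7, with 9, 7 and 8 in Soy and 9, 4 and 12 in Sow.

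Among 12417 genes with a symbol, the levels most like SMAD6 over the 15 libraries (Pearson's r of log2 CPM, as a description) were those of PHF19 (r = 0.978), PPP1R12B (0.967), WNT2B (0.962), ADAMTS10 (0.961) and ARRB1 (0.959). Each was highest in Soy 3 and lowest in Sow: PHF19 ranged from 18.3 to 21.3 CPM in Sow and from 24.3 to 44.7 CPM in the formula libraries. ID1 was most like SMIM4 (r = 0.941), GLIPR2 (0.937), IKBIP (0.929) and ANGPT1 (0.921). ANGPT1, for example, had between 21.2 and 28.5 CPM in Sow, 16.9 CPM in Soy 3 and 30.3 CPM in Milk 2.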

How the data were processed

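Testis RNA of piglets was measured by RNA sequencing in 15 libraries, 3 in each of 5 diet groups. Per the study's methods, the authors removed low-quality reads, mapped single-end reads with the CLC Genomics Workbench to a curated porcine gene library and the remaining reads to the pig genome of Ensembl (Sscrofa11.1), and deposited raw read counts per gene and library. Whether counting used strand is not given in the sources used here. The labels number the libraries of a group but name no piglet, so p-values measure the spread between libraries, which may be technical. The number of columns of per-sample values left unused was 0. Gene positions were taken from a RefSeq table of assembly Sscrofa11.1, by symbol.

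The packages edgeR 4.0.16, DESeq2 1.42.0 and limma 3.58.1 were run in R 4.3.3. Genes were kept by filterByExpr at a minimum count of 10 (15634 genes, or 15328 with all 3 Sow libraries). The 5 groups were fitted together with TMM scaling and edgeR's quasi-likelihood F test, without Sow 2, which the study's methods left out, and 10 comparisons were made. Log2 CPM used a prior count of 1. Intervals are at 95%. A count of 0 allows up to 3 reads, for counting error only. Relations across libraries used 100000 permutations and two-sided p-values. The fit was also run on counts simulated for Soy versus Milk with 200 changed genes. That run covered no comparison with Sow, and its outcome is not given here.

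The 10 genes and the other gene lists were chosen with earlier results of these data known. The genes named beside the 10 are, from the list of 53 pathway genes, any called in a comparison without Sow (there were 0) and, in each comparison with Sow, the 2 largest rises and 2 largest falls among those whose groups did not overlap with Sow 2 left out, and the 5 genes most correlated with SMAD6 and with ID1. One of these genes is not reported here. ENG, MSX1 and SMAD4 were added after their values were seen. No DAZL, LHCGR or EGFL7 row was matched by symbol, and these markers were not used here. Erythroid markers (5 genes) summed to between 504 and 594 CPM in Sow and between 230 and 1476 CPM in the formula groups.

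No label states that replicate numbers pair libraries across groups. For Milk and M + G, deviations from group means of libraries with the same number had r of 0.231, 0.492 and 0.414. Soy 3 and Sow 3 reached 0.488. Values for libraries of unlike number are not given here, so a pairing was not settled. For the M + E2 libraries r was −0.0594, −0.0906 and −0.324 with Milk, and 0.119, 0.0632 and −0.126 with M + G.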

Additional observations from a re-analysis of the deposited data

How the results depend on the processing

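The number of the 10 genes called in M + E2 versus Sow was 1 and became 3 with all 3 Sow libraries, with a fit of only these groups, without the filter, with DESeq2's Wald test and with edgeR's exact test, 0 with the replicate block, and between 0 and 3 when 1 library was left out. In M + G versus Sow it was 0 and became 4 with all 3 Sow libraries, 2 with a fit of only these groups, 1 without the filter, 1 with the Wald test, 2 with the exact test, and between 0 and 4 when 1 library was left out. In Soy versus Sow the Wald test called 1 (SMAD6), and in M + E2 versus Milk leaving out 1 library gave between 0 and 3. Sow 2 entered when another Sow library was left out. The replicate block, on numbered libraries only, changed no other call of the 10 genes, and in M + G versus Milk it also gave 0.

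The log2 fold change of SMAD6 changed sign when 1 library was left out in all 6 comparisons without Sow: it ranged from −0.45 to 0.42 in M + E2 versus Milk, −0.61 to 0.26 in M + G versus Milk, −0.61 to 0.78 in Soy versus Milk, −0.48 to 0.71 in Soy versus M + E2, −0.036 to 0.27 in M + E2 versus M + G and −0.33 to 0.86 in Soy versus M + G. Leaving out Soy 3 and Milk 2 together, chosen after seeing the data, gave 0.41, 0.26, −0.069, −0.48 and −0.33 in the 5 of these that hold Milk or Soy, in the same order. Over 30 fold changes of these genes and 380 alternative values, 329 kept direction and side of the threshold, 35 passed it in the same direction, 4 fell short of it in the same direction and 12 changed sign. DESeq2's size factors moved the median of all genes by at most 0.0113. With 3 libraries a group, the 95% intervals of SMAD6 and BMP4 reached about 2-fold to either side of the fitted value between formulas, so that smaller differences were not resolved.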
